A study of Sus scrofa with 12 samples.

Results

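The 8 genes described here are CYP1A1, its relatives CYP1A2 and CYP1B1, the aryl hydrocarbon receptor AHR, its partner ARNT, its repressor AHRR, and the receptor's target genes TIPARP and NQO1. They were found by their pig gene symbols among the 19681 Ensembl genes of the expression tables, and all 8 were present. The set was chosen by the FPKM of CYP1A1, which had been seen at about 287 on day 2 and far lower afterwards, so its levels across the stages are given as a description with no test. FPKM counts the fragments on a transcript after correction for transcript length and library size, which lets levels of different genes be set side by side.

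RNA was sequenced from porcine induced pluripotent stem cells (piPSCs) after 2 (IEC2), 4 (IEC4) and 12 days (IEC12) of endothelial induction, and from AOC, a porcine endothelial cell line, with 3 biological repeats (A, B and C) per group. Cells on Matrigel received the GSK3 inhibitor CHIR99021 until day 2, then BMP4, FGF2 and VEGF until day 4, and then the endothelial medium EGM-2 with VEGF until day 12. Stage and medium changed together and cannot be told apart. The IEC12 libraries are of cells not sorted for CD31. The undifferentiated piPSCs and the CD31-sorted cells are not analysed here, so no level from before day 2 is given.

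The aryl hydrocarbon receptor is a transcription factor of the bHLH-PAS family that is held in the cytoplasm by HSP90 and its co-chaperones until a planar aromatic ligand, such as a dioxin, a polycyclic hydrocarbon or a tryptophan metabolite, binds it. It then enters the nucleus, pairs with ARNT and turns on a battery of genes of which CYP1A1 is the classical one, along with CYP1B1, TIPARP and its own repressor AHRR. In endothelial cells the pathway is known for its response to ligands in the blood and for a role in the shaping of vessels.

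Library totals lay between 335976.4 and 457193.7 FPKM, and 8357 to 10467 genes reached 1 FPKM. The number of reads is unknown, and the depth of the libraries relative to each other was estimated from the steps between low values, taking the most common ratio as that of equal read counts, at 0.649 in IEC12 A and between 0.871 and 1.19 in the other libraries. Of the 10 endothelial markers listed, 7 were found. In AOC their levels added up to 244 to 356 FPKM. The sums of the IEC2 libraries were 3.15 to 5.65 FPKM, those of IEC4 were 1.28 to 2.01 and those of IEC12 only 0.406 to 0.531. CDH5, the cadherin of endothelial junctions, was listed at 0 in all 9 IEC libraries. KDR went the other way between IEC2 and AOC, at 2.45, 3.99 and 2.42 FPKM against 1.32, 1.31 and 1.46 FPKM. The sample labels name the IEC cells as induced endothelial cells, and in the unsorted IEC12 libraries these markers were thus at or near 0. Of the 5 epithelial markers, 4 were found. Their sum was 316 to 822 FPKM in IEC4, against 13.3 to 21.2 in IEC2, 4.68 to 16.0 in IEC12 and at most 0.0509 in AOC. Most of the IEC4 sum was the keratin KRT8, at 300, 435 and 748 FPKM, whereas EPCAM had 0.166, 0.208 and 2.21 FPKM there. The 7 fibroblast markers listed were found, and their sum was highest in IEC2, at 85.0 to 116 FPKM. It was 47.5 to 58.5 in IEC4, 62.4 to 80.7 in IEC12 and 18.3 to 23.6 in AOC. Most of the IEC2 sum was COL3A1, at 66.0, 107 and 108 FPKM. Of 8 pluripotent markers 2 were found, with sums of at most 0.155 FPKM in IEC2 and 3.3 to 6.39 in IEC4. The part of these markers in the levels below was not tested. In bulk RNA, fewer cells of a type and less RNA of a gene per cell cannot be told apart.

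CYP1A1 encodes the cytochrome P450 enzyme that oxidises polycyclic aromatic hydrocarbons, and lies on chromosome 7 from 58802887 to 58809155 of the pig assembly Sscrofa11.1 (susScr11). In the IEC2 libraries A, B and C it stood at 188, 288 and 385 FPKM. At IEC4 the values were 3.31, 7.22 and 6.75 FPKM, and at IEC12 they were 0.292, 1.13 and 0.633 FPKM. The lowest library of each stage lay above the highest library of the next, so the 3 stages did not overlap.

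The AOC libraries were lowest, at 0.169, 0.178 and 0.197 FPKM of CYP1A1, and the values of this cell line lay below every IEC library. The group means were 287 ± 98.6 FPKM in IEC2, 5.76 ± 2.14 in IEC4, 0.686 ± 0.422 in IEC12 and 0.181 ± 0.0147 in AOC (SD, n = 3). The mean of IEC2 was 49.9 times that of IEC4, and the mean of IEC4 was 8.41 times that of IEC12. From day 2 to day 12 the ratio of the means was 419, and the lowest IEC2 library was still 166 times the highest IEC12 library. Among all 19681 genes, CYP1A1 ranked 313, 165 and 115 by level in the IEC2 libraries. By IEC4 it ranked 7249, 5342 and 5680, and by IEC12 it ranked 11106, 9051 and 10327, among genes under 1 FPKM in IEC12 A and C.

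**Figure D1:**
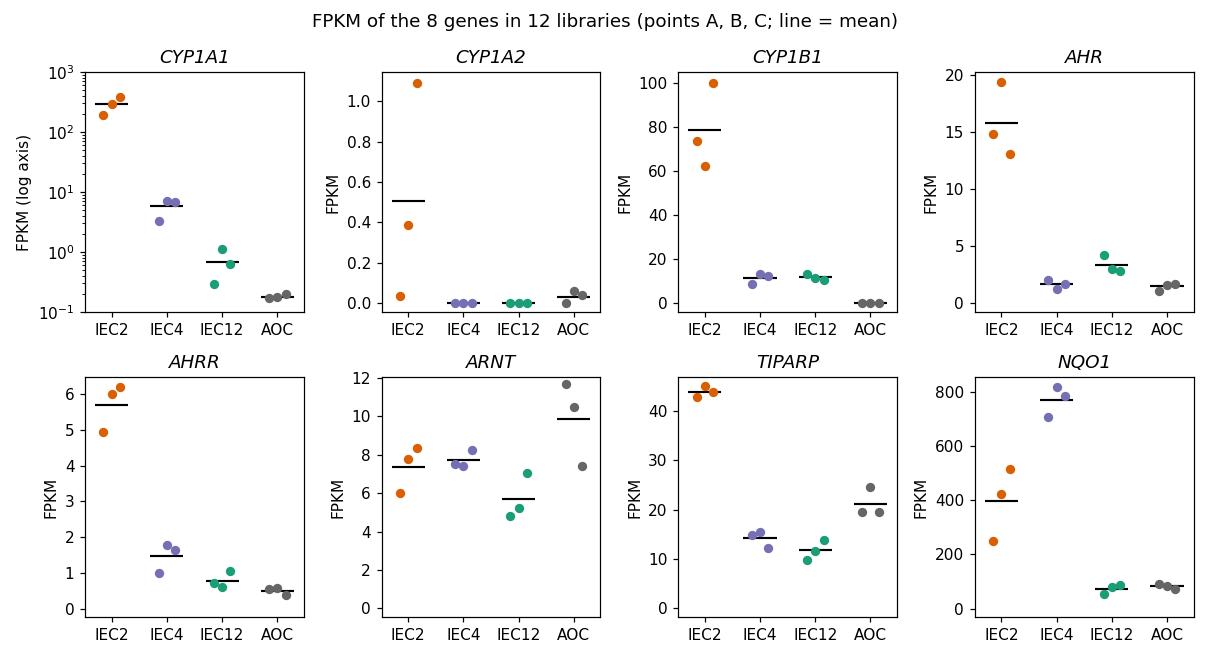
FPKM of the 8 genes in each library of IEC2, IEC4, IEC12 and AOC, 1 panel per gene, with points for replicates A, B and C and a line at the group mean; the axis of CYP1A1 is logarithmic and the others are linear. CYP1A1, CYP1B1, AHR, AHRR and TIPARP were highest in all 3 IEC2 libraries, NQO1 was highest in IEC4, and the points of ARNT in IEC2 overlapped those of each other group.

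CYP1A2, the sister enzyme best known from liver, lies on the same chromosome from 58779529 to 58786155, 16731 bases from CYP1A1 and with 0 other annotated genes between them. Its level was 0.037, 0.387 and 1.09 FPKM in the IEC2 libraries, and it was listed at 0 in all IEC4 and IEC12 libraries. AOC had 0, 0.0597 and 0.0395 FPKM. The gene did not pass the filter on low values and was not tested. In IEC2, its level was 0.0197, 0.134 and 0.284% of that of CYP1A1 in the same library, and since the genes are close paralogues, reads of CYP1A1 placed on CYP1A2 cannot be told apart from its own. CYP1A1 therefore accounted for nearly all of the CYP1A signal at day 2.

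CYP1B1, the family member that is widespread outside the liver and oxidises oestradiol as well as aromatic hydrocarbons, followed CYP1A1 down from IEC2 to IEC4 but not further. It measured 73.5, 62.5 and 100 FPKM in IEC2. The IEC4 libraries had 8.92, 13.1 and 12.6 FPKM and the IEC12 libraries had 13.1, 11.7 and 10.5 FPKM. IEC2 stood apart from both later stages, which overlapped each other. In limma on log2(FPKM + 1), CYP1B1 fell by 2.66 from IEC2 to IEC4 (SE 0.205, adjusted p = 2.09e-05), from a mean of 78.7 ± 19.3 FPKM to 11.5 ± 2.28 FPKM. The difference between IEC12 and IEC4 was 0.04 with a 95% interval from -0.42 to 0.50 (adjusted p = 0.897), and its sign changed with the scaling and with the libraries used.

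The 2 enzymes therefore exchanged places. CYP1A1 was 2.56, 4.62 and 3.85 times CYP1B1 in the IEC2 libraries, whereas at IEC4 it was 0.371, 0.553 and 0.535 times and at IEC12 it was 0.0222, 0.097 and 0.0605 times CYP1B1. This order within a library does not depend on how libraries were scaled.

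The place of CYP1A1 among the cytochrome P450 genes shows the same shift. With CYP1A1, CYP1A2 and CYP1B1, 28 P450 genes were found by symbol, and any P450 genes listed without a symbol are left out. The summed level of the 28 was 410, 511 and 639 FPKM in the IEC2 libraries. CYP1A1 alone made up 45.9, 56.4 and 60.3% of that sum, and CYP1B1 a further 17.9, 12.2 and 15.6%. At IEC4 the share of CYP1A1 was 1.15, 2.4 and 2.54%. It was at most 0.418% in IEC12 and at most 0.103% in AOC. CYP2D6, a drug-metabolising enzyme, with 25.4 to 30.7%, CYP4B1, an enzyme of fatty acid and xenobiotic oxidation, with 23.0 to 23.8%, and CYP51A1, the demethylase of sterol synthesis, with 21.0 to 30.6% then held most of the sum at IEC4. In AOC, CYP51A1 held 79.9 to 80.8%.

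**Figure D2:**
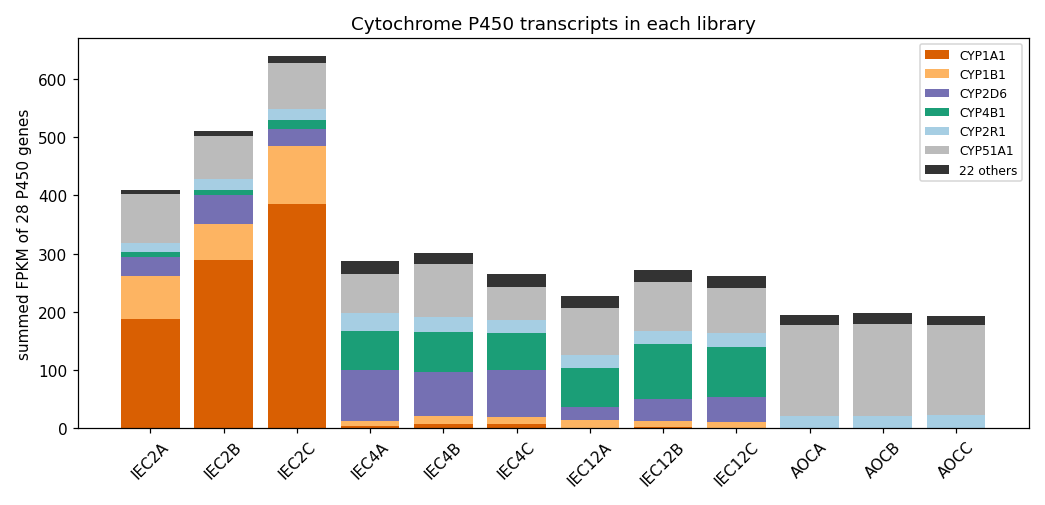
Summed FPKM of 28 cytochrome P450 genes in each of the 12 libraries, divided among CYP1A1, CYP1B1, 4 further genes and the 22 others. CYP1A1 fills 45.9 to 60.3% of the IEC2 bars and at most 2.54% of any bar of the other groups.

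AHR itself, on chromosome 9 from 86511866 to 86555950, had its highest level at the same stage. It measured 14.9, 19.4 and 13.1 FPKM in IEC2. In the IEC4 libraries it stood at 2.03, 1.30 and 1.72 FPKM, and in IEC12 at 4.21, 3.04 and 2.84 FPKM. The 3 stages did not overlap, with IEC4 lowest. The mean of AHR was 15.8 ± 3.24 FPKM in IEC2, 1.69 ± 0.364 in IEC4 and 3.36 ± 0.737 in IEC12 (SD, n = 3).

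From IEC2 to IEC4, AHR fell by 2.63 on the log2 scale (SE 0.208, adjusted p = 2.3e-05 in limma), a ratio of 0.107 between the means. From IEC4 to IEC12 it rose by 0.70 (SE 0.208, adjusted p = 0.0226). That call was lost with libraries scaled to equal totals (0.55, adjusted p = 0.0545) and without IEC12 A (0.56, adjusted p = 0.0667), IEC12 B (0.74, adjusted p = 0.0511) or IEC4 B (0.59, adjusted p = 0.0839). At day 12 AHR still lay 1.94 below day 2 on the log2 scale (SE 0.208, adjusted p = 9.12e-05).

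ARNT, on chromosome 4 from 98333431 to 98390012, is the partner that AHR needs to bind DNA and is shared with the hypoxia-inducible factors. Its levels were 6.03, 7.76 and 8.36 FPKM in IEC2, 7.53, 7.43 and 8.24 in IEC4, and 4.83, 5.25 and 7.06 in IEC12. IEC2 overlapped both other stages. IEC4 minus IEC2 was 0.07 on the log2 scale with a 95% interval from -0.34 to 0.48 (limma, adjusted p = 0.797), and the sign of this difference changed with median-of-ratios scaling and without IEC2 A. IEC12 minus IEC4 was -0.39 with an interval from -0.80 to 0.02 (adjusted p = 0.108).

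The balance of receptor to partner thus shifted mostly through AHR. AHR was 2.47, 2.50 and 1.56 times ARNT in the IEC2 libraries, 0.269, 0.176 and 0.209 times in IEC4 and 0.872, 0.58 and 0.403 times in IEC12. AHR lay above ARNT in every IEC2 library and below it in every library of the other groups.

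AHRR, on chromosome 16 from 79730920 to 79810183, is a relative of AHR that competes for ARNT and is itself induced by the receptor. Its FPKM was 4.94, 6.01 and 6.19 in IEC2, 0.997, 1.79 and 1.65 in IEC4, and 0.707, 0.600 and 1.05 in IEC12. IEC2 stood above the rest without overlap, while IEC4 and IEC12 overlapped. AHRR fell by 1.45 on the log2 scale from IEC2 to IEC4 (SE 0.196, adjusted p = 0.000447 in limma). The step from IEC4 to IEC12 was -0.47 (SE 0.196, adjusted p = 0.0783), and it passed the limit of 0.05 with equal totals (adjusted p = 0.0495) or without IEC4 A (adjusted p = 0.0438). From day 2 to day 12 AHRR fell by 1.91 (adjusted p = 6.81e-05).

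TIPARP, on chromosome 13 from 96496386 to 96524879, encodes an ADP-ribosyltransferase that is induced by AHR and restrains it. It had 42.9, 45.1 and 43.8 FPKM in IEC2, the smallest spread relative to the mean among the 8 genes at that stage. IEC4 followed with 14.9, 15.4 and 12.3 FPKM and IEC12 with 9.86, 11.7 and 13.9 FPKM. The later stages overlapped each other and both lay below IEC2. TIPARP fell by 1.57 on the log2 scale from IEC2 to IEC4 (SE 0.154, adjusted p = 6.96e-05 in limma), and IEC12 minus IEC4 was -0.25 with a 95% interval from -0.60 to 0.09 (adjusted p = 0.206).

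NQO1, on chromosome 6 from 17292962 to 17302593, encodes a quinone reductase that is a target of AHR and, through its antioxidant response element, of the stress factor NRF2. Its course differed from that of the other members. It stood at 248, 423 and 516 FPKM in IEC2, at 707, 817 and 785 FPKM in IEC4, where it ranked 46, 41 and 44 among all genes, and at 54.5, 78.9 and 86.4 FPKM in IEC12. The 3 stages did not overlap.

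NQO1 rose by 1.02 on the log2 scale from IEC2 to IEC4 (SE 0.26, adjusted p = 0.0127 in limma), from a mean of 395 ± 136 FPKM to 770 ± 56.9 FPKM, and fell by 3.40 from IEC4 to IEC12 (SE 0.26, adjusted p = 2.46e-05), to 73.3 ± 16.6 FPKM. NQO1 was 1.32, 1.46 and 1.34 times CYP1A1 in the IEC2 libraries, a nearly constant ratio, although IEC2 A had the lowest level of both. In IEC4 it was 213, 113 and 116 times CYP1A1. The summed epithelial markers, 316 to 822 FPKM in IEC4 alone, were highest where NQO1, ALDH3A1 and several NRF2 targets described later were also high. The NRF2 targets SRXN1 and OSGIN1 had higher means in IEC2 (70.8 ± 31.8 and 53.6 ± 25.6 FPKM) than in IEC4 (31.1 ± 3.85 and 33.6 ± 1.51 FPKM). The part of the epithelial markers in these levels was not tested.

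Counted together, 6 of the 7 genes other than CYP1A1 passed the filter and were tested, CYP1A2 being the exception. Between IEC4 and IEC2, 5 of them had an adjusted p under 0.05, 4 lower (AHR, AHRR, CYP1B1 and TIPARP) and 1 higher (NQO1), where 37.3% of all 10542 genes tested were called, 12.5% lower and 24.8% higher. Their median log2 difference was -1.51, against 0.20 for all genes. Between IEC12 and IEC4, 2 were called, AHR higher and NQO1 lower, beside 44.2% of all genes, a share near the background. Their median was -0.32, against -0.15 for all genes. Between IEC12 and IEC2, 5 were lower and 0 higher, beside 19.3% of all genes lower, 24.2% higher and 43.6% called in all, with a median of -1.92 against 0.03. ARNT was the tested member with an adjusted p above 0.05 in this comparison (0.18), and in it NQO1 fell by 2.38 (adjusted p = 9.94e-05). By the study's stricter limits (p and adjusted p under 0.001 and a log2 change beyond 3), which 1.18, 0.939 and 1.22% of genes passed in these comparisons, only the fall of NQO1 from IEC4 to IEC12 remained.

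**Figure D3:**
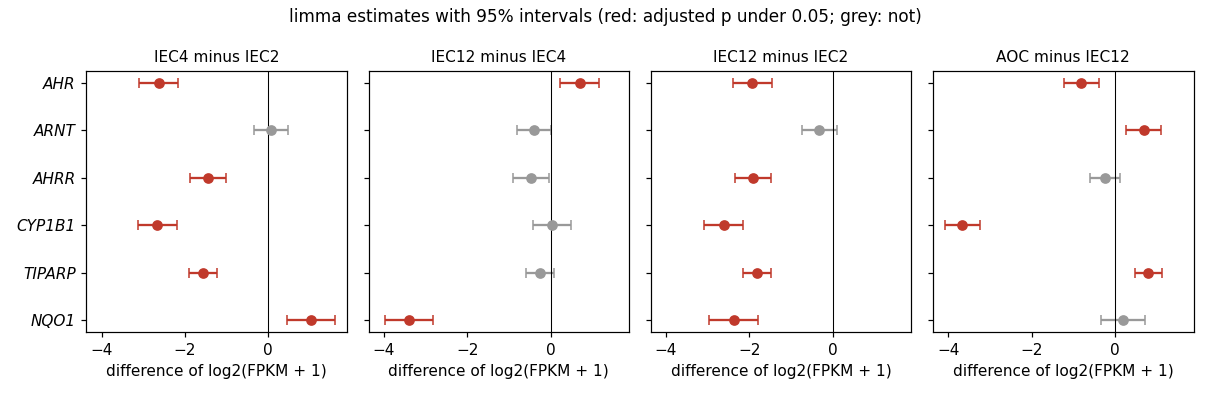
Differences of log2(FPKM + 1) with 95% intervals from limma for the 6 tested genes in 4 comparisons, red where the adjusted p was under 0.05 and grey where it was not. From IEC2 to IEC4 the points of AHR, AHRR, CYP1B1 and TIPARP lie at -2.63 to -1.45 and that of NQO1 at 1.02.

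Other genes known to respond to AHR formed a list of 19 besides CYP1A1, of which 16 were found and 13 tested, 9 of them outside the members. Of these 9, ALDH3A1 and EREG passed the filter only through IEC4, where they had to be high. CYP2S1 passed it only with IEC2 and IEC4 together. These genes are left out of the counts. Among the other 6, 0 were higher in IEC4 than in IEC2 and 2 were lower, beside 24.8% of all genes higher and 12.5% lower. LRAT, the acyltransferase that stores retinol, fell from 61.9 ± 11.4 FPKM to 3.18 ± 1.6 FPKM (log2 change -3.96, limma adjusted p = 8.51e-06), and NEDD9, a docking protein of adhesion sites, fell by 1.18 (adjusted p = 0.00045). ALDH3A1, an aldehyde dehydrogenase of the classical AHR battery, had 0.11, 0.181 and 0.245 FPKM in IEC2 and 11.6, 11.3 and 13.4 FPKM in IEC4, and at most 0.209 FPKM in IEC12. EREG, an EGF receptor ligand, had 0.273 ± 0.118 FPKM in IEC2 and 1.91 ± 0.369 FPKM in IEC4. Both are given as a description.

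At day 12, all 6 of the same genes were lower than at day 2 and 0 higher, beside 19.3% of all genes lower and 24.2% higher. SLC7A5, the amino acid transporter that takes up tryptophan metabolites, fell by 3.10 on the log2 scale (limma, adjusted p = 0.000109) and STC2, a secreted stanniocalcin, by 3.09 (adjusted p = 4.01e-05). Both fell between IEC4 and IEC12, by 2.83 (adjusted p = 0.000271) and 2.97 (adjusted p = 9.04e-05), and did not pass the test between IEC2 and IEC4, where SLC7A5 differed by -0.26 (adjusted p = 0.58) and STC2 by -0.12 (adjusted p = 0.784). LRAT, like AHR, rose between IEC4 and IEC12, by 1.17 (adjusted p = 0.00646). Over these 6 genes the median change was -0.25 from IEC2 to IEC4, -1.44 from IEC4 to IEC12 and -2.69 from IEC2 to IEC12, against 0.20, -0.15 and 0.03 for all genes.

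From IEC2 to IEC4 and from IEC4 to IEC12, NQO1 changed in the same direction as several genes of the NRF2 list. These genes serve glutathione synthesis, the supply of NADPH and the removal of peroxides. Of 20 genes, 17 were found and 16 tested, 15 of them besides NQO1. ABCC1 and FTL passed the filter only through IEC4, and of the other 13, 6 rose and 1 fell from IEC2 to IEC4, beside 24.8% of all genes higher and 12.5% lower. ME1, the malic enzyme that makes NADPH, rose by 2.82 (limma, adjusted p = 1.31e-05), SQSTM1, the autophagy receptor p62, by 2.48 (adjusted p = 0.00281), and PGD, of the pentose phosphate pathway, by 1.53 (adjusted p = 0.0199). SRXN1 was the gene that fell, by 1.05 (limma, adjusted p = 0.0459). Counting ABCC1 and FTL, 0 to 2 fell with other settings or a library left out. Without IEC2 A, IEC4 A or IEC4 C the count that rose was 3. From IEC4 to IEC12, 12 of these 13 fell and 0 rose, beside 26.9% of all genes lower. With ABCC1 and FTL counted, 13 of 15 fell, and 11 to 14 with other settings or a library left out. OSGIN1, a growth inhibitor of the oxidative stress response, fell by 4.54 (adjusted p = 3.13e-05) and SLC7A11, the cystine importer, by 3.73 (adjusted p = 1.56e-05). From IEC2 to IEC12, 6 of the 13 were lower and 1 higher, beside 19.3% and 24.2% of all genes. In that comparison NQO1 was lower, while ME1, SQSTM1 and PGD were not called (limma, adjusted p = 0.842, 0.482 and 0.119). In AOC against IEC12, 8 of 15 were higher and 3 lower, beside 22.4% and 36.2% of all genes. NQO1 was not called there (limma, adjusted p = 0.512).

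NRF2 itself (gene NFE2L2) had 183 ± 14.2 FPKM in IEC2 and 184 ± 10.4 FPKM in IEC4 (log2 difference 0.01, 95% interval -0.23 to 0.24, limma adjusted p = 0.973), and fell by 0.54 to IEC12 (adjusted p = 0.00339). KEAP1, which marks NRF2 for degradation, rose by 1.11 from IEC2 to IEC4 (adjusted p = 0.0231) and fell by 1.23 to IEC12 (adjusted p = 0.013). Of the other regulators, MAFF, a small MAF partner, fell at both steps, by 0.62 (adjusted p = 0.0269) and 1.58 (adjusted p = 0.00023).

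**Figure D4:**
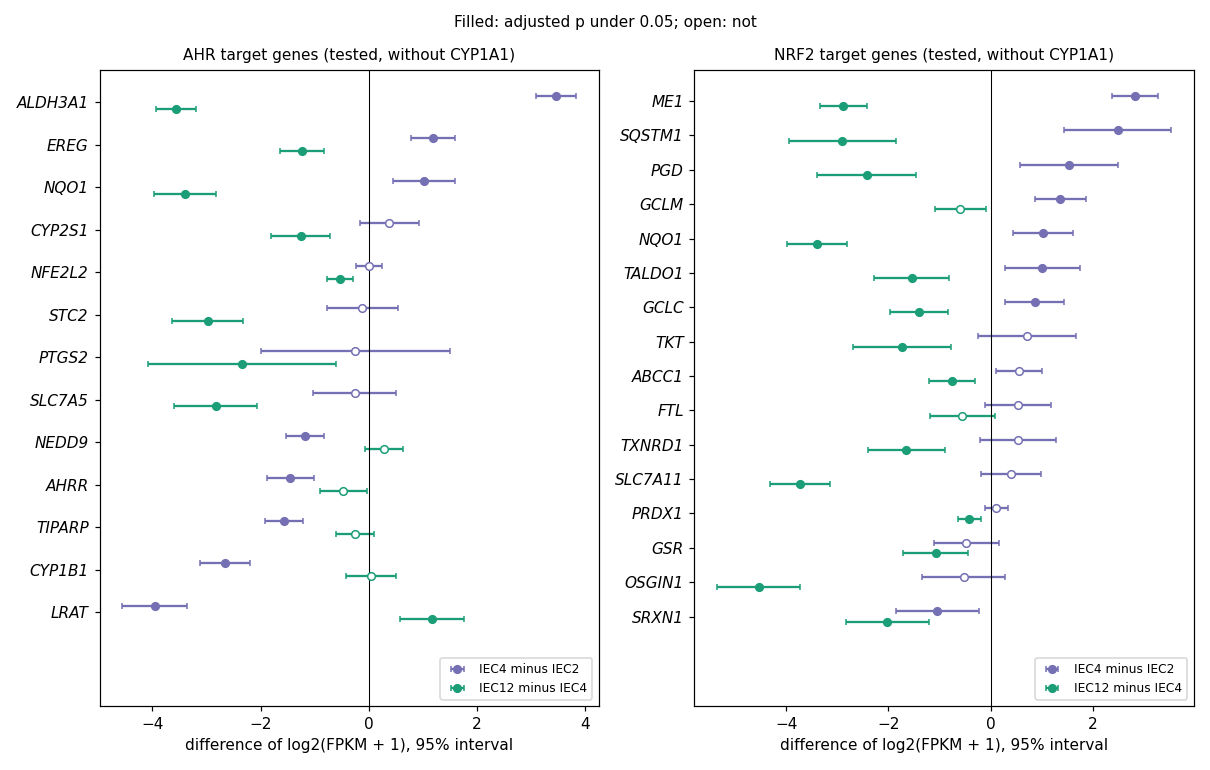
Differences of log2(FPKM + 1) with 95% intervals from limma for the tested AHR target genes (left) and NRF2 target genes (right), from IEC2 to IEC4 and from IEC4 to IEC12, filled where the adjusted p was under 0.05. LRAT lies at -3.96 in the earlier step. The points of ALDH3A1, EREG, ABCC1 and FTL belong to genes that passed the filter only through IEC4. CYP2S1 passed it only with IEC2 and IEC4 together. In the later step, 14 of 16 NRF2 targets including NQO1 lie below 0 with filled points.

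The chaperones that hold AHR in the cytoplasm kept high levels throughout. Besides AHR, ARNT and AHRR, 5 genes of the complex were found and tested. HSP90AB1 had 151 ± 10.5 FPKM in IEC2, 139 ± 11.9 in IEC4 and 114 ± 12.9 in IEC12, and PTGES3, the co-chaperone p23, had 82.6 ± 6.71, 79.6 ± 3.02 and 77.7 ± 6.17 FPKM. Neither passed the test from IEC2 to IEC4 (limma, adjusted p = 0.506 and 0.759), and HSP90AB1 was lower in IEC12 than in IEC2 by 0.41 (adjusted p = 0.0272). DNAJA1, an HSP40 co-chaperone, was the gene of these 5 that rose at both steps, by 0.87 (adjusted p = 0.000807) and 0.53 (adjusted p = 0.0098). ARNT2, the partner most used in neurons, rose by 0.63 from IEC2 to IEC12 (adjusted p = 0.0155).

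Of the enzymes that make or break down tryptophan-derived ligands of AHR, 12 of 13 genes were found and 4 were tested in the IEC libraries. TDO2 and KYNU were listed at 0 in all 12 libraries. IDO1, which opens the kynurenine route, was listed above 0 in the IEC4 libraries alone, at 0.824, 0.546 and 0.337 FPKM. KYAT1, a kynurenine aminotransferase, had 1.38 ± 0.336 FPKM in IEC2, rose by 0.80 to IEC4 (limma, adjusted p = 0.0214) and fell by 1.54 to IEC12 (adjusted p = 0.000752). KYAT3 and AFMID stood higher. KYAT3 had 43.3 ± 3.51 FPKM in IEC2, 37.0 ± 1.1 in IEC4 and 36.1 ± 3.81 in IEC12. AFMID had 15.8 ± 2.01, 25.9 ± 2.38 and 27.1 ± 11.2 FPKM, and neither was called between these stages. DDC, the decarboxylase of aromatic amino acids, was lower in IEC12 than in IEC2 by 1.28 (adjusted p = 0.0123), and was listed at 0 in AOC.

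Compared with IEC12, the AOC line had a different mix of the pathway's genes. AOC and IEC12 shared low CYP1A1, with means of 0.181 and 0.686 FPKM. CYP1B1 was listed at 0 in all 3 AOC libraries, against 10.5 to 13.1 FPKM in IEC12. This difference passed the 0.05 limit (limma, adjusted p = 1.7e-08) and also the study's limits, which 4.41% of all genes passed in this comparison. AHR had 1.12, 1.65 and 1.70 FPKM in AOC, below every IEC12 library, and was lower by 0.81 on the log2 scale (SE 0.195, adjusted p = 0.00374).

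ARNT and TIPARP were higher in the line. ARNT had 11.7, 10.5 and 7.39 FPKM in AOC, above the IEC12 libraries (log2 difference 0.69, SE 0.19, limma adjusted p = 0.00841), and TIPARP had 19.6, 24.6 and 19.5 FPKM, also without overlap (0.80, SE 0.147, adjusted p = 0.000608). AHRR, at 0.553, 0.566 and 0.388 FPKM, differed by -0.24 (95% interval -0.61 to 0.13, adjusted p = 0.242). NQO1, at 90.5, 84.3 and 73.6 FPKM, overlapped IEC12 and differed by 0.20 (interval -0.33 to 0.72, adjusted p = 0.512), a difference that passed the limit with median-of-ratios scaling (0.47, adjusted p = 0.0437) and was near 0 without IEC12 A. In all, 4 of the 6 tested genes were called, 2 higher and 2 lower, beside 58.5% of all 11053 genes, 22.4% higher and 36.2% lower, which is near the background. TIPARP and CYP1A1 thus did not share an order across the groups, since TIPARP was above its IEC4 and IEC12 levels in AOC and CYP1A1 was lowest there.

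By the similarity of log2(FPKM + 1) over the 12 libraries, the gene most like CYP1A1 among 11052 genes was AHRR, with a Pearson r of 0.99. Next among genes with a symbol came DIRAS2, a small GTPase, with 0.983, NDUFA4L2, a mitochondrial protein of the hypoxia response, with 0.982, CCNB1IP1, a ubiquitin ligase of meiotic recombination, with 0.981, and PGGT1B, a subunit of a prenyltransferase, with 0.98. DIRAS2 stepped down from 4.95 ± 1.73 FPKM in IEC2 to 0.607 ± 0.105 in IEC4 and was listed at 0 in IEC12 and AOC. NDUFA4L2 stood at 4.71 ± 0.455 FPKM in IEC2, 1.04 ± 0.0843 in IEC4 and 0.0292 ± 0.0268 in IEC12. Among the other members, r was 0.874 for AHR (rank 279), 0.837 for CYP1B1 (rank 432), 0.805 for TIPARP (rank 608), 0.608 for NQO1 (rank 1899) and -0.049 for ARNT (rank 6108). These values describe 12 libraries that fall into 4 groups and share one scaling, so any gene that is high in IEC2 alone scores high.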

How the data were processed

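RNA from the cells was amplified by Smart-Seq2, made into libraries with a SMARTER kit and sequenced on an Illumina HiSeq instrument. The authors processed the reads in Galaxy and deposited FPKM tables with 1 value for each gene. Bowtie2 2.2.3, TopHat2 2.0.12, Cufflinks 2.2.1 and the build susScr11 are named in the submitters' processing notes, without roles. The annotation release is not given in the sources used here. Symbols were found for 13998 of the 19681 Ensembl identifiers, and positions come from RefSeq for Sscrofa11.1, with none matched for CYP1B1. Strand use is not stated.

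Differences were tested with limma 3.58.1 (R 4.3.3) on log2(FPKM + 1), a scale that understates changes of low genes, with lmFit, contrasts.fit and eBayes (trend = TRUE). A gene was tested where 3 or more of the fitted libraries reached 1 FPKM. The 9 IEC libraries were fitted together (10542 genes), and all 12 for AOC against IEC12 (11053 genes). p-values were adjusted by Benjamini-Hochberg over all genes tested, and calls needed an adjusted p under 0.05. Comparisons that share a group are not independent. The test was checked on simulated data. The members and gene lists were chosen with earlier results of these data known. Genes named are the 8 members, the 5 genes most like CYP1A1 and genes from the lists. Those from the lists were drawn from genes past the study's limits or else the 3 largest called changes. Not every such gene is named in every comparison. Others named were chosen after their values were seen.

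Replicate letters were taken from titles. Libraries with the same letter deviated from their groups with correlations of -0.562 to 0.263 across comparisons, so the letters were not treated as pairs. Depth relative to other libraries was estimated from ratios of values under 0.1 FPKM, and 62 of 66 pairs of libraries fitted within 0.02 on the log2 scale. A value listed at 0 can be a failed estimate. Alternatives were the replicate block, median-of-ratios or equal-total scaling, a fit restricted to the compared groups, a pseudocount of 0.1, testing all genes above 0, a variance not tied to expression, the study's limits and each replicate left out. Python 3.11.15, NumPy 2.4.6, pandas 2.3.3 and matplotlib 3.10.9 were used for summaries and figures.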

Additional observations from a re-analysis of the deposited data

How the results depend on the processing

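The counts of members called kept within 1.5 times of 5 (IEC4 against IEC2), 5 (IEC12 against IEC2) and 4 (AOC against IEC12) under every alternative other than the study's limits, which left 0, 0 and 1. For IEC12 against IEC4 the count was 2, the study's limits left 1, and with a replicate left out it was 1 to 3, since AHR lost its call without IEC12 A, IEC12 B or IEC4 B and other members gained one without IEC12 C or IEC4 A. With a replicate block the counts were 5, 2, 5 and 4, and the block changed no member's call. The signs that changed belong to differences whose 95% intervals include 0. ARNT between IEC4 and IEC2 was -0.17 with median-of-ratios scaling and -0.05 to 0.15 with a replicate left out, below 0 without IEC2 A. CYP1B1 between IEC12 and IEC4 was -0.16 with equal totals and -0.12 to 0.13 with a replicate left out, below 0 without IEC12 A (-0.04) or IEC4 A (-0.12). NQO1 between AOC and IEC12 was -0.00075 to 0.33 with a replicate left out, lowest without IEC12 A. The mean of CYP1A1 in AOC was 0.215 FPKM with median-of-ratios scaling and 0.162 with equal totals. The difference of CYP1B1 between AOC and IEC12 was -6.88 with a pseudocount of 0.1, as the gene was listed at 0 in AOC. Median-of-ratios scaling moved the median log2 difference of all genes from 0.20 to -0.03 (IEC4 against IEC2), from -0.15 to 0.06 (IEC12 against IEC4) and from -0.21 to -0.01 (AOC against IEC12). The falls of CYP1B1, AHR, AHRR and TIPARP from IEC2 to IEC4 and of NQO1 from IEC4 to IEC12 were called under all 13 alternatives of the fit. Levels below 1 FPKM, such as CYP1A1 in IEC12 and AOC and all values of CYP1A2 but 1, rest on few reads of unknown number.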

Other observations

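Among the relatives of AHR in the bHLH-PAS family, EPAS1 (HIF-2α), a hypoxia-inducible factor known from endothelium that also pairs with ARNT, had 6.47, 10.8 and 10.6 FPKM in IEC2, 31.7, 21.9 and 13.5 in IEC4, at most 0.152 in IEC12 and 9.14, 9.89 and 4.32 in AOC. It rose by 1.13 on the log2 scale from IEC2 to IEC4 (limma, adjusted p = 0.0144), fell by 4.37 to IEC12 (adjusted p = 1.26e-05), and was higher in AOC than in IEC12 by 2.97 (adjusted p = 1.04e-05). HIF1A also rose from IEC2 to IEC4, by 0.80 (adjusted p = 0.00167), and fell to IEC12, by 1.07 (adjusted p = 0.000355). BMAL1, the clock partner of the family, went the other way and fell by 1.0 from IEC2 to IEC4 (adjusted p = 0.00313). Of the 10 relatives tested, NPAS1 passed the filter only through 1 group, and of the other 9, 4 rose and 1 fell in that step, beside 24.8% of all genes higher and 12.5% lower.

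Of the genes that supply haem and electrons to P450 enzymes, 13 were tested. POR passed the filter only through 1 group, and CYB5R3 only with IEC2 and IEC4 together. Of the other 11, 5 were higher and 0 lower in IEC4 than in IEC2, beside 24.8% of all genes higher and 12.5% lower, and for all 13 median-of-ratios scaling gave 3 and 3. From IEC4 to IEC12, 0 of the 11 were higher and 5 lower, beside 17.3% of all genes higher and 26.9% lower. From IEC2 to IEC12, 2 were higher and 2 lower, beside 24.2% and 19.3%. BLVRB, the biliverdin and flavin reductase, rose from 52.1 ± 4.28 FPKM to 432 ± 35.1 FPKM (log2 change 3.03, limma adjusted p = 3.95e-06) and fell to 86.7 ± 20.5 FPKM at IEC12 (-2.33, adjusted p = 2.28e-05), with the epithelial markers also highest in IEC4, whose part was not tested. ALAS1, the rate-limiting enzyme of haem synthesis, had 5.58 ± 0.354 FPKM in IEC2, 20.1 ± 2.35 in IEC4 and 5.0 ± 2.47 in IEC12. POR, the reductase that feeds electrons to CYP1A1, was low throughout, at 2.43 ± 0.821 FPKM in IEC2 and 0.611 ± 0.324 in IEC12. Of the 10 other P450 genes tested, CYP11A1 and CYP4V2 passed the filter only through 1 group, and CYP2S1 only with IEC2 and IEC4 together. Of the other 7, 5 rose and 0 fell from IEC2 to IEC4, beside 24.8% and 12.5% of all genes. With all 10 counted 6 rose, and 3 with median-of-ratios scaling. CYP4B1 rose by 2.60 (adjusted p = 2.71e-05), to 66.3 ± 3.03 FPKM, and was listed at 0 in AOC.

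Among all 10542 genes, IEC2 A was the lowest of the 3 IEC2 libraries for 52.2%. For CYP1A1 and for 15 of the 16 tested NRF2 targets, NQO1 among them, IEC2 A was lowest. This was noticed after the values were seen. AHRR, ARNT, TIPARP and CYP1A2 were also lowest in IEC2 A, whereas AHR was lowest in IEC2 C and CYP1B1 in IEC2 B.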
